A study of Mus musculus with 6 samples.

Results

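Lhx1, Gsc, Mixl1, Mesp1, Tbx6, Wnt3 and Fgf8 are 5 transcription factors and 2 secreted ligands of the mesendoderm, the precursor of mesoderm and endoderm in the gastrulating embryo. They were chosen by name, 7 of 20524 autosomal protein-coding genes with a labelled surrounding. The choice uses no measured value in its rule, but was made with earlier results of these data known. Their nuclear position was read from Hi-C, which crosslinks chromatin and sequences joined fragments to find which stretches of DNA touch, in E14 cells, a line of male mouse embryonic stem cells. For each gene the 50 kb bins within 250 kb on either side were taken, 78 of 47717 bins in all, together with every chromatin loop that had an anchor within 50 kb of the gene.

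The cells were wild type in genotype, grown with serum and leukemia inhibitory factor, and all of them were transfected with esiRNA, a pool of short interfering RNAs, and collected 48 h later. Brg1KD cells received esiRNA against Smarca4, the gene of Brg1, which is the motor subunit of the esBAF chromatin remodeller. Ino80KD cells received esiRNA against Ino80, which encodes the motor of the INO80 remodeller, and control cells received esiRNA against EGFP. Each group has 2 libraries, 1 from each of 2 batches, and the labels do not say whether they came from separate cultures. The p-values therefore rest on the spread between these libraries, which may be technical, and on a variance pooled over all genes or bins tested. Where the libraries of each group are identical, only the pooled variance is left. Both knockdowns were set against the same control libraries. The series title names subcompartments and enhancer-promoter contacts as what the 2 remodellers may affect. Hi-C holds no transcript level, so neither the depth of a knockdown nor the expression of any gene was measured here. The files give no read numbers and the sequencing depth is unknown.

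At gastrulation Wnt, Nodal and FGF signals set up the primitive streak, and cells that pass through it switch on mesendoderm factors. Wnt3 is needed to form the streak, Fgf8 lets cells move out of it, Mixl1, Gsc and Lhx1 act in the streak, the organiser and the anterior mesendoderm, and Mesp1 and Tbx6 direct early mesoderm. Embryonic stem cells in serum and leukemia inhibitory factor are pluripotent and stand before these decisions. Chromatin is parted into A, which is gene rich and active, and B, which is gene poor and mostly silent. The authors' files divide A and B into 8 subcompartments, which are ranked here from 1 for B.2.2 up to 8 for A.1.1, with 6 for A.2.1, 5 for A.2.2, the lowest of A, and 4 for B.1.1, the highest of B. A step between neighbouring subcompartments is called a class, and a window rank is the mean rank of the bins around a gene. The libraries held 5044 to 5234 segments, and 38.5% and 38.8% of the bins lay in A in Brg1KD, 38.5% and 38.6% in Ino80KD, and 39.5% and 39.7% in control. The bins of all 6 stem cell markers examined (Pou5f1, Sox2, Nanog, Esrrb, Klf4 and Zfp42) were in A in every library, but so were those of 3 of 4 fibroblast markers, so these labels do not identify the cell type.

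The promoters of the genes differ in their content of CG pairs, the site of DNA methylation in mammals, and 3 are shown: Lhx1 and Mesp1 because they held the most and the fewest, and Gsc because its window had the largest difference in the knockdowns. Each run is the 250 bases before the gene start, 5′ to 3′ on the gene's strand, from RefSeq on GRCm38.p6, the assembly that mm10 names, with CG pairs in capitals. They lie at chr11:84525535-84525784 on the minus strand for Lhx1, chr12:104473237-104473486 on the minus strand for Gsc and chr7:79793591-79793840 on the minus strand for Mesp1.
Lhx1: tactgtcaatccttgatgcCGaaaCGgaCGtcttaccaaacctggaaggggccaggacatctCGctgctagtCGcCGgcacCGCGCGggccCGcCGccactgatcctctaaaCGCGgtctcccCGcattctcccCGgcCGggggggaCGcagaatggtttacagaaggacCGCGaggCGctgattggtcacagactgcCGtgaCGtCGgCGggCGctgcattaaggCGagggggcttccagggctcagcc
Gsc: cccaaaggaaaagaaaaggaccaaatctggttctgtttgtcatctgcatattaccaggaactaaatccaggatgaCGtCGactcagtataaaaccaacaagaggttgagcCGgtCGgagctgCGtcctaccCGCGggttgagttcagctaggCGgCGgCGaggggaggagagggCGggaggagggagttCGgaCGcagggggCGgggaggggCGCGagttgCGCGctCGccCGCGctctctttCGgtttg
Mesp1: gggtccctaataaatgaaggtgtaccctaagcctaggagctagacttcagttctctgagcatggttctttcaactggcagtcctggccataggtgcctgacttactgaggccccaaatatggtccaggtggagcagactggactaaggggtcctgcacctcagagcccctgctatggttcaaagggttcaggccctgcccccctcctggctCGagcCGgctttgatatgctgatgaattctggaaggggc
The Lhx1 promoter held 26 CG pairs, more than 87.1% of 20085 mouse promoters of the same length, whose median was 10. Gsc and Wnt3 held 22 each, more than 79.8% of promoters, Tbx6 held 6 (36.8%) and Mesp1 held 2 (14.6%). Entries of the table matched 5 of the 7 genes, Fgf8 and Mixl1 being the others. The 3 genes with CG-rich promoters had the lowest window ranks of the 7, given next, and the 2 genes with CG-poor promoters had the highest. That is a description of 5 genes and was not tested.

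In control cells the genes fell into a high and a middle set by window rank. Mesp1 and Tbx6 stood at 8 in both control libraries, Mixl1 at 7.82 in both, and Fgf8 averaged 7.73 ± 0.386 (SD, n = 2 here and below). Wnt3 stood at 5.58 in both control libraries, Gsc averaged 5.50 ± 0.193 and Lhx1 averaged 5.45 ± 0.129. Mixl1 and Fgf8 did not differ beyond the spread of Fgf8, and Gsc did not differ from Wnt3 or Lhx1 beyond its own spread. Both Wnt3 values lay above both Lhx1 values, by a mean difference close to the SD of Lhx1, while the gap between Fgf8 and Wnt3 was wider than the spread of either. Of the 78 bins, 71 (91.0%) were in A in all 6 libraries, against 34.6% of all bins, and 52 (66.7%) kept an identical label in all 6 libraries, against 33.8% of all bins. All 11 bins each of Mesp1 and Tbx6, at the top label A.1.1, are among these 52. Genes in general lie in A more often than bins do, and 62.0% of all gene windows had a mean rank in A in every library. That is a share of windows, not of bins. Of the 7 windows only that of Gsc fell below 5, the lowest rank of A, with 4.91 and 4.73 in Brg1KD.

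**Figure D1:**
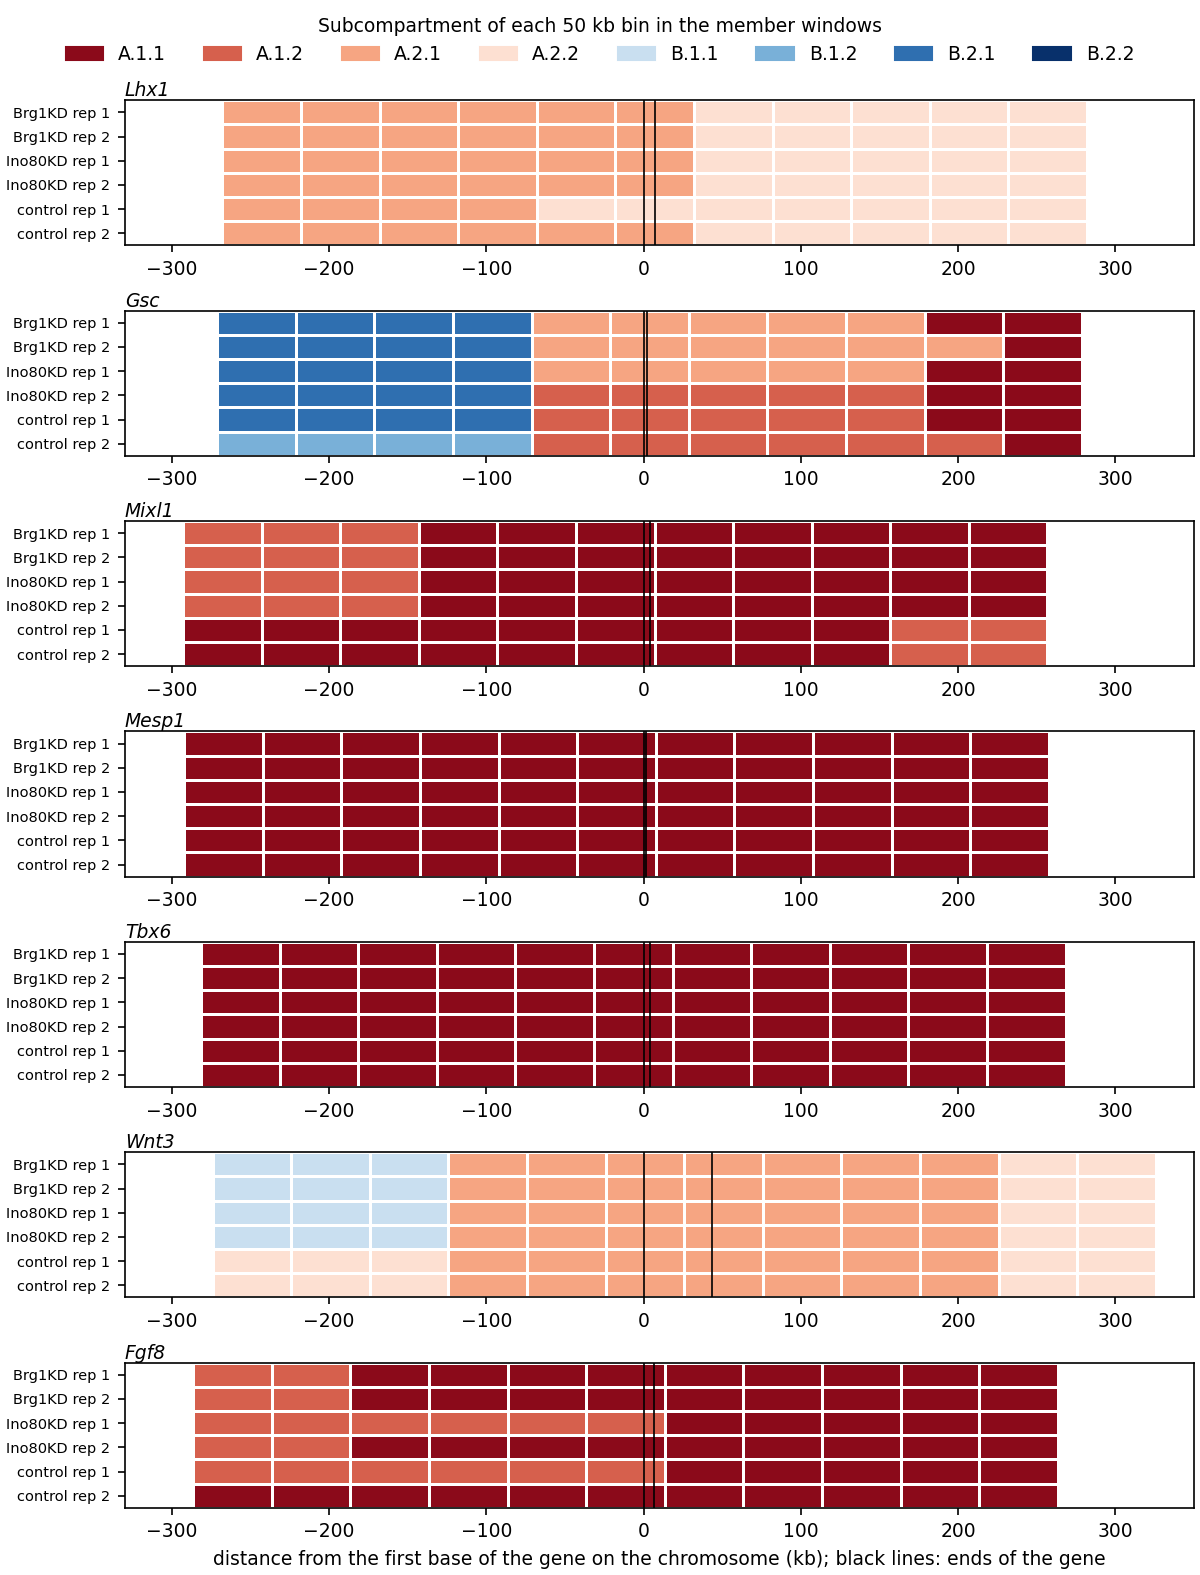
Subcompartment label of every 50 kb bin around each gene, 1 row per library (Brg1KD, Ino80KD and control, rep 1 and rep 2), from dark red for A.1.1 to dark blue for B.2.2, against distance in kb from the gene's first base on the chromosome. Mesp1 and Tbx6 are A.1.1 throughout, Gsc borders B in all 6 libraries, and the 3 leftmost bins of Wnt3 are B.1.1 in the 4 knockdown libraries and A.2.2 in both controls.

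Wnt3 was the only one of the 7 genes whose window passed the test in either knockdown. It encodes a secreted Wnt ligand and lies on chromosome 11 from 103774175 to 103818021 (mm10), in 2 bins labelled A.2.1 in all 6 libraries. The window rank was 5.33 in both Brg1KD libraries, 5.33 in both Ino80KD libraries and 5.58 in both control libraries, so neither knockdown overlapped control. It fell by 0.25 classes in Brg1KD (SE 0.0122, adjusted p = 0.00643 by limma) and by 0.25 classes in Ino80KD (adjusted p = 0.0102 by limma), with -0.25 classes within each batch in both comparisons. With batch as a block the adjusted p by limma was 0.0566 in Brg1KD and 0.0885 in Ino80KD, past the threshold of 0.05 in neither. With 1 variance shared by all genes it was 0.960 in Brg1KD and 1 in Ino80KD. The 2 libraries of each group did not differ at all in this window. Its SE of 0.0122 thus came from the pooled variance alone, and the limma p-values are not a measure of size.

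The whole Wnt3 difference came from 3 adjacent bins, chromosome 11 from 103500001 to 103650000, which end 124 kb before the gene. They were B.1.1 in both Brg1KD and both Ino80KD libraries and A.2.2 in both control libraries, a difference of 1 class across the A/B border. The protein-coding genes there are Lrrc37a, Gm884, Lyzl6 and Rprml. Beyond the window the run extends to a start at 103450001, 200 kb in length. At 103650001 the labels therefore stepped by 2 classes from B into A in the 4 knockdown libraries, and by 1 class within A in the control libraries. These 3 of the 78 bins were the only ones that lay in B in both libraries of a knockdown and in A in both controls. Of all bins 1.00% went from A to B in Brg1KD and 0.616% in Ino80KD. Only bins in A in control can do so, and these were 39.5% and 39.7% of all bins in the control libraries. Of the 78 bins, 91.0% were in A in all 6 libraries, so the shares of all bins are on an unlike base. The bins nearer the gene were the same in every library, so the shift is 0 classes with a window of 100 kb. With a window of 500 kb it was -0.18 in Brg1KD (adjusted p = 0.348 by limma) and -0.25 in Ino80KD (adjusted p = 0.418).

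Counted over the 7 genes, 1 window was called towards B in Brg1KD and none towards A, where 1.33% of all 20524 windows were called towards B, 1.14% towards A and 2.46% either way. In Ino80KD 1 was also called towards B and none towards A, against 0.935% towards B, 0.502% towards A and 1.44% either way. The median shift of the 7 windows was 0 classes in Brg1KD and -0.0909 in Ino80KD, and that of all windows was 0 in both. Between Brg1KD and Ino80KD no window of the 7 was called by limma and none had an unadjusted p under 0.05, while 1.59% of all windows were called. An exact permutation of 2 libraries against 2 cannot go below p = 0.333, so no single window could pass 0.05 that way.

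**Figure D2:**
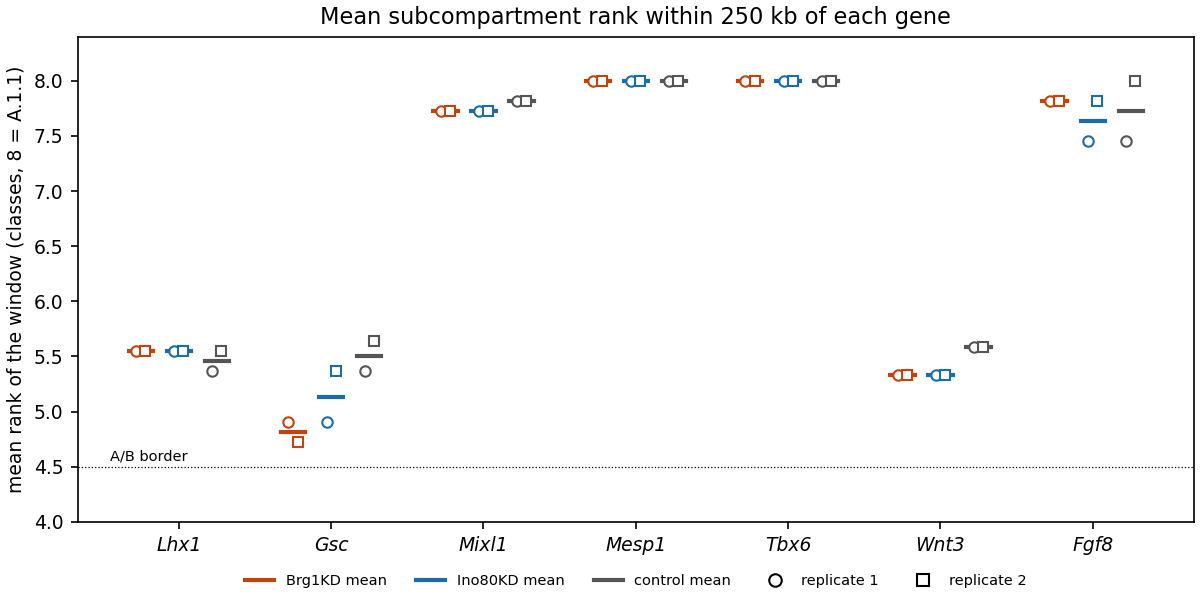
Window rank in classes (8 is A.1.1) of each gene in every library, circles for replicate 1 and squares for replicate 2, with Brg1KD left of Ino80KD and control and bars at group means. The dotted line marks the A/B border. Both knockdowns of Wnt3 lie at 5.33 below control at 5.58, and Gsc has the widest range, 0.909 classes over its 6 libraries.

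Gsc, a homeobox repressor of the organiser, had the largest difference in size and did not pass the test. The gene lies on chromosome 12 from 104471209 to 104473236. Its window rank was 4.91 and 4.73 in Brg1KD, 4.91 and 5.36 in Ino80KD, and 5.36 and 5.64 in control. The Brg1KD libraries lay below both controls, and an Ino80KD library equalled a control library. The difference from control was -0.68 classes in Brg1KD (SE 0.211, adjusted p = 0.440 by limma), with -0.455 and -0.909 within the batches, and -0.36 in Ino80KD (adjusted p = 0.846 by limma), with -0.455 and -0.273. Brg1KD lay -0.32 classes from Ino80KD (adjusted p = 0.770 by limma). With 1 library left out at a time, the difference ran from -0.818 to -0.545 in Brg1KD. In Ino80KD it ran from -0.591 without Ino80KD replicate 2 to -0.136 without Ino80KD replicate 1, with -0.227 without control replicate 2. Between the knockdowns it ran from -0.545 without Ino80KD replicate 1 to -0.0909 without Ino80KD replicate 2.

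The bin of Gsc itself had rank 6 in both Brg1KD libraries, 6 and 7 in Ino80KD and 7 in both controls, all of them in A. The same ranks held over 5 adjacent bins, 104400001 to 104650000, 250 kb that also hold Serpina3n, a protease inhibitor. In Brg1KD each of these bins was 1 class below control with no overlap, and tested singly they had an adjusted p of 0.733 by limma. Part of the window difference came from other bins, where the groups overlapped. From 104200001 to 104400000 the rank was 3 in control replicate 2 and 2 in every other library. Gsc also sits beside a sharp border. At 104400001, 71.2 kb before the gene, the labels stepped from B to A by 4 and 4 classes in Brg1KD, 4 and 5 in Ino80KD and 5 and 4 in control. Steps of 4 classes or more made up 13.6% to 15.5% of all borders between neighbouring bins in these libraries. The border did not move in any library.

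Mixl1, a homeobox factor of the streak, had different labels at both ends of its window and the same label at the gene. It lies on chromosome 1 from 180693043 to 180697034, in a bin that was A.1.1 in all 6 libraries. The window rank was 7.73 in both Brg1KD libraries, 7.73 in both Ino80KD libraries and 7.82 in both controls, without overlap. The difference was -0.09 classes in each knockdown (adjusted p = 0.0860 in Brg1KD and 0.133 in Ino80KD by limma). Its size depended on the window: in each knockdown it was -0.0197 weighted by bases, 0 with 100 kb and -0.238 with 500 kb. The shift is the sum of opposite changes. The 3 bins from 180400001 to 180550000, with Itpkb and Stum, had rank 7 in both Brg1KD and both Ino80KD libraries and 8 in both controls. The 2 bins from 180850001 to 180950000 had rank 8 in the 4 knockdown libraries and 7 in both controls. They hold Lefty1 and Lefty2, secreted inhibitors of Nodal signalling, and, among other genes, Sde2 and Tmem63a. Tested singly, each of these 5 bins had an adjusted p of 8.00e-08 in Brg1KD and 1.20e-07 in Ino80KD by limma, and 2.02e-05 and 3.06e-05 with batch as a block. Of all bins 3.30% were called towards B and 1.53% towards A in Brg1KD when tested singly, and 2.37% and 0.855% in Ino80KD. The bins of the Wnt3 run had the same values, because in both runs the libraries of a group were identical, and 39.7% of all bins had no residual spread in this fit. Such p-values of single bins follow from identical labels and are not a measure of size.

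Over the 78 bins, 11 (14.1%) lay towards B with no overlap between Brg1KD and control libraries, against 7.19% of all bins, and 2 (2.56%) lay towards A, against 3.13%. In Ino80KD 6 (7.69%) lay towards B, against 4.50% of all bins, and 2 (2.56%) towards A, against 1.76%. All of the bins towards A were those of Lefty1 and Lefty2, and those towards B belonged to Wnt3 and Mixl1 in both knockdowns and to Gsc in Brg1KD. Between Brg1KD and Ino80KD none of the 78 bins was without overlap, against 8.86% of all bins. The bins are neighbours within 7 stretches of DNA and do not count as independent.

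Mesp1 and Tbx6 did not vary at all. Mesp1, a basic helix-loop-helix factor of the earliest cardiac mesoderm, lies on chromosome 7 from 79792241 to 79793590, and Tbx6, a T-box factor of paraxial mesoderm, on chromosome 7 from 126781483 to 126785548. All 11 bins of each window were A.1.1 in both Brg1KD, both Ino80KD and both control libraries. The rank has no step above A.1.1, so a change towards A could not be seen there. Such windows are not rare: 1589 genes (7.74%) had every bin in A.1.1 in all 6 libraries.

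Lhx1, a LIM homeobox factor of the organiser, lies on chromosome 11 from 84517975 to 84525534. Its window rank was 5.55 in both Brg1KD libraries, 5.55 in both Ino80KD libraries, and 5.36 and 5.55 in control. Control replicate 1 stood apart, with the border between A.2.1 and A.2.2 at 84450001, 68 kb before the gene, and in the other 5 libraries it lay at 84550001, 24.5 kb after it. The gene's own bin was thus A.2.2 in that library and A.2.1 in the others. The difference was 0.09 classes in each knockdown (adjusted p = 0.721 in Brg1KD and 0.846 in Ino80KD by limma), 0.182 within batch 1 and 0 within batch 2. Without control replicate 2 it was 0.182 classes in each (adjusted p = 0.0156 in Brg1KD and 0.0174 in Ino80KD by limma), a call that rests on the single remaining control.

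Fgf8, a secreted fibroblast growth factor, lies on chromosome 19 from 45736491 to 45742941. The window rank was 7.82 in both Brg1KD libraries, 7.45 and 7.82 in Ino80KD, and 7.45 and 8 in control, so the groups overlapped. The difference was 0.09 classes in Brg1KD and -0.09 in Ino80KD (adjusted p = 1 in each by limma). Within the batches it was 0.364 and -0.182 in Brg1KD, and 0 and -0.182 in Ino80KD. The sign turned in Brg1KD without control replicate 1 (-0.182), and in Ino80KD without Ino80KD replicate 1 (0.0909) or control replicate 2 (0.182). Batch 1 held the low libraries of both Ino80KD and control, in which the own bin of Fgf8 had rank 7, and it had rank 8 in the other 4 libraries. The control libraries differed more from each other here than for any other of the 7 genes.

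Loops were given as 1 list per group, so their differences have no replicate check, and a loop has no score. An anchor within 50 kb of one of the 7 genes was found for 13 of 6013 loops in Brg1KD, 14 of 5475 in Ino80KD and 15 of 5903 in control. In each list 6 of the 7 genes had a loop, where 56.3% of all protein-coding genes had one in Brg1KD, 53.7% in Ino80KD and 56.2% in control. The median span of the loops near these genes was 510 kb in Brg1KD, 550 kb in Ino80KD and 480 kb in control, against 250 kb for all loops in each list. In each list 3 of them spanned 1 Mb or more, as did 3.53% of all loops in Brg1KD, 4.07% in Ino80KD and 4.10% in control. All of these long loops were at Lhx1 or Fgf8. Median spans in Brg1KD, Ino80KD and control were 995, 995 and 670 kb at Lhx1, 695, 810 and 695 kb at Fgf8, and 480 kb in each at Gsc. At Tbx6, Mesp1 and Wnt3 they lay below 250 kb in every list. Loops of 1 gene can share an anchor and do not count as independent. Most of the loops near the 7 genes were found again. With both anchors allowed 10 kb, 13 of 13 Brg1KD loops and 13 of 14 Ino80KD loops were in the control list, against 75.6% and 81.0% of all loops of those lists. Of the 15 control loops, 13 were in the Brg1KD list and 13 in the Ino80KD list (86.7% each), against 77.0% and 75.1% of all control loops.

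**Figure D3:**
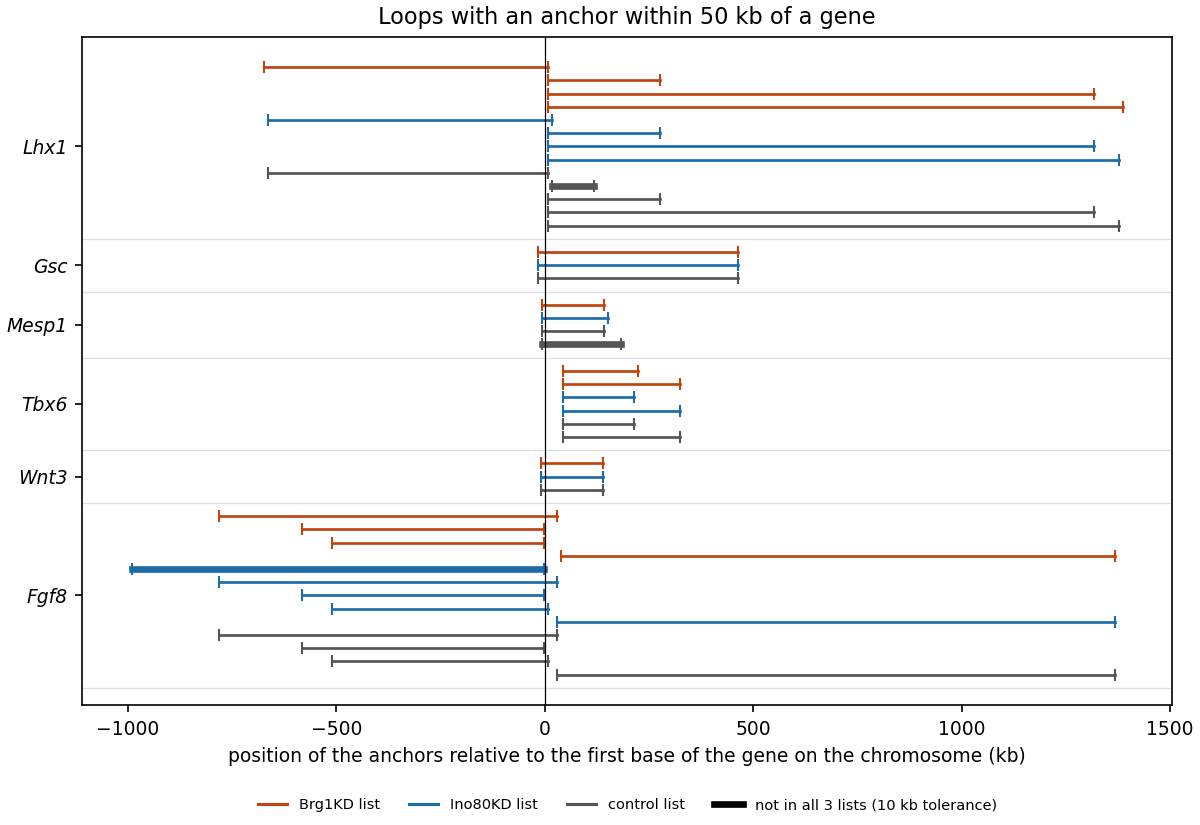
Loops with an anchor within 50 kb of a gene, drawn from anchor to anchor against distance in kb from the gene's first base on the chromosome, with Brg1KD above Ino80KD and control. Thick lines are the 3 loops that were not in all 3 lists: 1 at Fgf8 in Ino80KD, spanning 990 kb, and 1 each at Lhx1 and Mesp1 in control.

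Lhx1 and Fgf8 had the most loops. Lhx1 had 4 in Brg1KD, 4 in Ino80KD and 5 in control, and Fgf8 had 4 in Brg1KD, 5 in Ino80KD and 4 in control, where 4.38% of all genes had 4 or more in Brg1KD, 3.66% in Ino80KD and 4.28% in control. The anchor from 84520001 to 84530000 covers the Lhx1 promoter printed above. From it 1 loop of 1310 kb reached Tbx2 with the same anchors in all 3 lists. Another reached Tbx4 over 1380 kb in Brg1KD and 1370 kb in Ino80KD and control. Tbx2 and Tbx4 are neighbouring T-box factors that act in heart and limb development. The bins of these far anchors were A.2.2 in 5 libraries and B.1.1 in Ino80KD replicate 1. A loop of 270 kb was identical in the 3 lists, and 1 of 100 kb was in the control list only.

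Fgf8 had a loop of 580 kb to Tlx1, a homeobox factor needed for the spleen, with the same anchors in all 3 lists. A further loop spanned 510 kb in Brg1KD and 520 kb in Ino80KD and control, to an anchor without a protein-coding gene. From the neighbouring gene Oga, which removes O-linked sugars from proteins, loops reached Slf2 over 810 kb and Pdcd11 over 1330 kb in Brg1KD and 1340 kb in Ino80KD and control. A loop of 990 kb from Fgf8 to the anchor from 44740001 to 44750000 was in the Ino80KD list only. That anchor holds the promoter of Pax2, a paired-box factor of kidney, eye and midbrain. The 250 bases before its start, chr19:44746351-44746600 on the plus strand of GRCm38.p6, are shown because this was the only loop near the 7 genes that a knockdown list held and the control list did not.
Pax2: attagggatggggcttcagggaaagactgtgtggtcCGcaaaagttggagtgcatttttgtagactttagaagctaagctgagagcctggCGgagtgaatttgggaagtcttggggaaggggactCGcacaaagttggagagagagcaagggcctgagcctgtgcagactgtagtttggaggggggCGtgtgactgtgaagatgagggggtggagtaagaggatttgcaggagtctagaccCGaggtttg
The run held 5 CG pairs, in capitals.

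The other genes had few loops, mostly the same in each list. Gsc had 1, from 104450001 to Syne3, a nuclear envelope protein, over 480 kb with identical anchors in the 3 lists. Wnt3 also had 1 in each list, of 150 kb with identical anchors, from the neighbouring ligand gene Wnt9b to Nsf, a factor of vesicle fusion. The region of Wnt3 whose label differed between knockdowns and control thus lay outside this loop. Tbx6 had 2 in each list, from Tlcd3b to Mvp over 180 kb in Brg1KD and 170 kb in Ino80KD and control, and to Qprt over 280 kb. Mesp1 had 1 in Brg1KD, 1 in Ino80KD and 2 in control. The shared loop started at Wdr93 and spanned 150 kb to Arpin in Brg1KD, 160 kb to an anchor without a gene in Ino80KD, and 150 kb to Arpin in control. A loop of 190 kb was in the control list only. Mixl1 had none within 50 kb in any list, its nearest anchor lying 63 kb away in all 3.

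Other genes of the same pathways, 52 on 4 lists, were read in the same way. The calls on each list stand beside 2.46% of all windows called either way in Brg1KD and 1.44% in Ino80KD. Of 14 Wnt pathway genes 1 was called towards A and 0 towards B in Brg1KD, and none in Ino80KD. It was Fzd7, a Wnt receptor, with a window rank of 8 in both Brg1KD libraries, 7.73 in both Ino80KD libraries and 7.73 in both controls. The difference from control was 0.27 classes in Brg1KD (adjusted p = 0.00512 by limma, 0.0509 with batch as a block) and 0 in Ino80KD. Brg1KD also lay 0.27 classes above Ino80KD (adjusted p = 0.00734 by limma, 0.0739 with batch as a block). The libraries of each group were identical in this window, so these p-values rest on the pooled variance and are not a measure of size. The median shift of the list was -0.0179 classes in Brg1KD and 0 in Ino80KD.

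Of 10 FGF pathway genes 1 was called towards B in each knockdown and none towards A. It was Spry4, an inhibitor of FGF signalling, at 7.67 in both Brg1KD and both Ino80KD libraries and 8 in both controls. It fell by 0.33 classes in each (adjusted p = 0.00324 in Brg1KD and 0.00434 in Ino80KD by limma), with 0.0392 and 0.0560 once batch was a block. Here too the libraries of each group were identical, so these p-values rest on the pooled variance and are not a measure of size. Spry4 had 2 loops in Brg1KD, 2 in Ino80KD and 4 in control. The largest differences that did not pass in this list were those of Fgf4, an FGF ligand of stem cells, and Spry2, each at a size of 0.68 classes in Brg1KD and in opposite directions, -0.68 for Fgf4 (adjusted p = 0.320 by limma) and 0.68 for Spry2 (adjusted p = 0.781). The median shift of the list was -0.0192 classes in Brg1KD and -0.125 in Ino80KD.

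Of 14 organiser and anterior mesendoderm genes 1 was called towards B in Brg1KD and none in Ino80KD. It was Chrd, the secreted BMP antagonist chordin, with 6.64 in both Brg1KD libraries, 7.27 and 7.36 in Ino80KD, and 7.64 and 7.45 in control. Both knockdowns lay below both controls. Chrd fell by 0.91 classes in Brg1KD (SE 0.0774, adjusted p = 0.0275 by limma, 0.132 with batch as a block), and the difference in Ino80KD was -0.23 (adjusted p = 0.737). Between Brg1KD and Ino80KD it was -0.68 (adjusted p = 0.0814), so the responses were not shown to differ. With 1 variance shared by all genes, Chrd in Brg1KD kept an adjusted p of 0.0312 by limma, whereas Fzd7 in Brg1KD had 0.915, and Spry4 had 0.831 in Brg1KD and 1 in Ino80KD. Chrd had 2 loops in Brg1KD, 2 in Ino80KD and 4 in control, while Fzd7 had 0 in each list. With 1 list per group these loop counts have no replicate check, and a link to the shifts was not tested. The median shift of the list was 0.0385 classes in Brg1KD and 0 in Ino80KD.

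Of 14 genes of the streak and of paraxial or cardiac mesoderm none was called in either knockdown by limma, and the median shift was 0.0455 classes in Brg1KD and 0 in Ino80KD. The 4 genes with the largest difference in either knockdown had it in Brg1KD. The values were -0.59 classes in Brg1KD and 0.05 in Ino80KD for Msgn1, a factor of paraxial mesoderm, and 0.50 and 0.09 for the Notch ligand Dll1. For T, the streak factor brachyury, they were 0.50 and 0.23, and for Kdr, the receptor of vascular growth factor, -0.46 and -0.29. In Ino80KD the largest were -0.36 for Evx1, a homeobox factor of the streak, and 0.35 for Gata4, a zinc finger factor of heart and endoderm. A loop anchor lay within 50 kb of 9 of these 14 genes in Brg1KD, 12 in Ino80KD and 8 in control. For the Wnt list the number was 9 of 14 in each, for the FGF list 9 of 10 and for the organiser list 10 of 14. Of all protein-coding genes 56.3% had such an anchor in Brg1KD, 53.7% in Ino80KD and 56.2% in control.

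**Figure D4:**
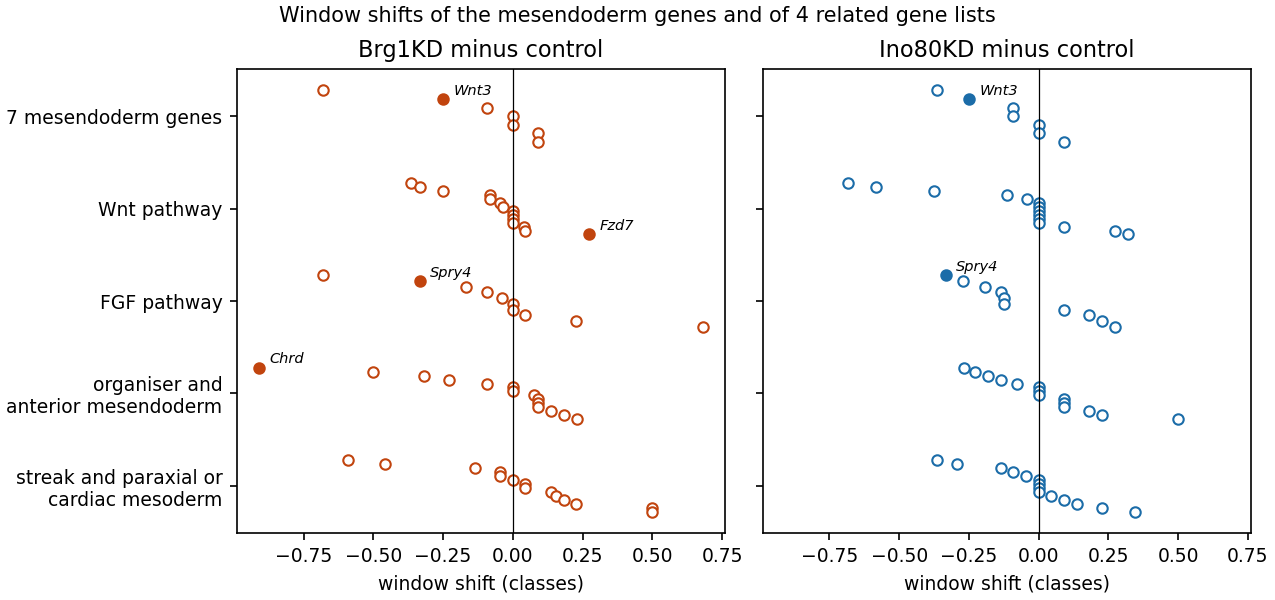
Window shift in classes of the 7 mesendoderm genes and of the genes of 4 related lists, Brg1KD minus control on the left and Ino80KD minus control on the right, 1 point per gene. Filled points passed an adjusted p of 0.05 by limma: Wnt3, Fzd7, Spry4 and Chrd in Brg1KD, and Wnt3 and Spry4 in Ino80KD.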

How the data were processed

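The authors deposited, for each of 6 Hi-C libraries, segments with a subcompartment label and a score, and, for each group, a list of loop anchor positions of 10 kb with no count or score. Per the submitters' processing notes the build was mm10 and the tools were bedtools, HOMER, Juicer 2.0, SAMtools and BWA, without their roles. The callers of subcompartments and loops are not given in the sources used here. Loop lists, recorded with replicate 2 but named merged, were taken as pooled. Segments were cut into 50 kb bins with ranks 1 to 8 taken from the labels. Genes were placed by RefSeq's table of GRCm38.p6. Window ranks of 20524 genes were tested in 1 fit of all 6 libraries with limma 3.58.1 in R 4.3.3 (lmFit, eBayes, Benjamini-Hochberg over all genes). The fit was also run on simulated data with independent normal noise, no batches and no stepped labels. Windows without residual spread got no noise there, so that run cannot judge calls in such windows. Python 3.11.15 did the rest. Of the windows, 12.3% had no residual spread. The labels name the batch, so same-numbered libraries pair; their deviations correlated with r = 0.120 (Brg1KD and Ino80KD), 0.125 (Brg1KD and control) and 0.152 (Ino80KD and control).

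The 7 genes and the lists were chosen with earlier results of these data known. All 7 are named; of the lists the called genes are named, and otherwise those with the largest shifts, with Fgf4, Spry2, Evx1 and Gata4 named after their values were seen. Genes with a similar pattern were to be named for windows ranging over 1 class or more, which none reached. The streak list, with no called gene, has the 4 with the largest shift in either knockdown. Some loops and neighbouring genes are not reported here. Alternatives changed the window, the weighting, the block, the variance model and the libraries. With 1 common variance the p-values came from a normal z-test on the shifts, not from eBayes.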

Additional observations from a re-analysis of the deposited data

How the results depend on the processing

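The Wnt3 shift kept its sign or was 0 under every alternative tried, and lost its call under the changes of model or window given here. In Brg1KD it was -0.25 classes with batch as a replicate block (adjusted p = 0.0566 by limma) and with 1 common variance (0.960 by a z-test). It was 0 with a window of 100 kb and in the gene's middle bin alone, and -0.18 with a window of 500 kb (0.348 by limma). In Ino80KD it was -0.25 with the block (0.0885), with 1 common variance (1) and with 500 kb (0.418), and 0 with 100 kb and in the middle bin. The shift stayed at -0.25 in both knockdowns with any 1 library left out. That outcome was fixed beforehand, because the 2 libraries of each group were identical in this window. Mixl1 at -0.0909 was called with the trend and robust options (0.00615 in Brg1KD, 0.00923 in Ino80KD), but not with the block (0.237, 0.363), 1 common variance (1 in each), at -0.0197 weighted by bases (0.740, 0.867), at 0 with 100 kb or at -0.238 with 500 kb (0.208, 0.354). Of the 7 genes 0 were called in either knockdown with 100 kb, 500 kb, the block or 1 common variance, where unadjusted p under 0.05 held for 0, 3, 2 and 1 in Brg1KD and 0, 2, 2 and 0 in Ino80KD, and for 7.37% to 13.6% and 5.28% to 8.20% of all genes. With trend and robust options 2 were called in each (520 of all genes in Brg1KD, 314 in Ino80KD), 2 had a called single bin in the window (2808 and 2055 of 20524 genes), and 1 to 2 with a library left out. All genes called, 505 in Brg1KD, 295 in Ino80KD and 326 between them, were 32, 21 and 0 with 500 kb and 253, 92 and 0 with the block (2331 and 2004 unadjusted for the zeros), and 499 between them with 100 kb. Leaving out a library gave 848 to 1286, 463 to 1118 and 709 to 1129. Over such omissions Lhx1 ran from 0 to 0.182 in each knockdown. Fgf8 ran from -0.182 to 0.364 in Brg1KD, reversed at -0.182 without control replicate 1, and from -0.364 to 0.182 in Ino80KD, reversed at 0.0909 without Ino80KD replicate 1 and at 0.182 without control replicate 2. The median over the 7 ran from -0.0909 to 0 in each, and in Ino80KD was 0 with 100 kb and -0.0197 weighted by bases. Within 100 kb 4 bins did not overlap in Brg1KD (13 within 250 kb) and 0 in Ino80KD (8). The counts within 250 kb are out of 78 bins, and the windows of 100 kb hold fewer. Of all bins 7.19% lay towards B and 3.13% towards A with no overlap in Brg1KD, and 4.50% and 1.76% in Ino80KD. Loops overlapping a gene body numbered 6 in each list, and 8 control loops had identical anchors in Brg1KD, where 13 matched within 10 kb. Causes were not tested. Depth is unknown, so what it limits cannot be given.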
